A study of Oryctolagus cuniculus with 16 samples.

Results

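The genes described here are 10 members of the platelet-derived growth factor (PDGF) and fibroblast growth factor (FGF) pathways: the ligands *PDGFA*, *PDGFB*, *PDGFC*, *PDGFD*, *FGF2* and *FGF7*, and the receptors *PDGFRA*, *PDGFRB*, *FGFR1* and *FGFR2*. They were chosen by symbol in the authors' gene table, in which each symbol was found once, so that 10 of the 20255 listed genes were taken. The femoral heads of 8 rabbits had been profiled by total RNA-seq, 5 of them from a Perthes disease model and 3 from control animals. In the Perthes group the hip was opened at 8 weeks of age, the femoral neck was tied with a suture and the ligamentum teres was cut, which stops the blood supply of the head. The controls are labelled WT, with no operation named, and both groups came from wild-type animals. The age of the controls and the interval between surgery and sampling are not given in the sources used here. The head was sequenced whole, so the cells that express a gene are not identified, and a name such as repair stroma is not established for these genes by the data.

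PDGFs and most FGFs are secreted proteins that bind receptor tyrosine kinases on mesenchymal cells and drive their division, migration and survival. PDGF chains pair into dimers. *PDGFA* and *PDGFC* products act mainly through the α receptor encoded by *PDGFRA*, *PDGFD* products mainly through the β receptor encoded by *PDGFRB*, and *PDGFB* products through both. PDGF-C and PDGF-D are released in a latent form and must be cut by extracellular proteases before they bind. *FGF2* encodes a broadly acting mitogen that is held in the matrix by heparan sulfate, while the *FGF7* product (keratinocyte growth factor) is made by mesenchymal cells and acts on a splice form of *FGFR2* typical of epithelia. In bone, these signals are known for the recruitment of pericytes and osteoprogenitors during repair and for the control of the growth plate.

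Library totals ranged from 26757087 to 29461482 counts, and 1 count corresponded to 0.0339 to 0.0374 CPM, the count scaled to a common library total. CPM values below were adjusted by TMM factors, which correct that total for differences in RNA composition. No transcript lengths were used, so fold changes compare values within a gene. Sums over markers, the most abundant gene of a list and ratios between genes carry no correction for length. In a principal component analysis the first component (56.1% of the variance) separated the groups, and Perthes rabbit 4 stood apart from the other 7 on the second (13.1%). Markers of erythroid cells and neutrophils had lower summed levels in the Perthes heads, without overlap between the groups. The summed CPM of 8 erythroid markers ranged from 31.6 to 1936 in Perthes and from 4040 to 4831 in controls, and that of 7 neutrophil markers from 27.4 to 1802 and from 6751 to 22330.

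By edgeR's quasi-likelihood test with Benjamini-Hochberg adjustment over 15305 genes, 2 of the 10 genes rose in Perthes, *PDGFC* and *FGF7*, and 0 fell. Among all genes tested, 6.21% were called higher and 8.86% lower. At an unadjusted p below 0.05 there were 4 genes, all higher, the other pair being *PDGFB* and *FGF2*. Of all genes tested, 31.9% passed that threshold, and 15.3% did so with a higher level in Perthes. In TMM-scaled CPM these 4 were also those in which every Perthes rabbit lay above every control, which held for 11.2% of all genes tested. DESeq2 called the same 4 genes higher, against 9.74% of the genes it tested, and 0 lower, against 11.0%. The 6 ligands had a median log2 fold change of 1.07 (range 0.55 to 2.99) and the 4 receptors one of 0.32 (range 0.03 to 0.42), beside 0.02 over all genes tested. In bulk tissue, a change in the number of cells of a type and a change in RNA per cell cannot be told apart.

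**Figure D1:**
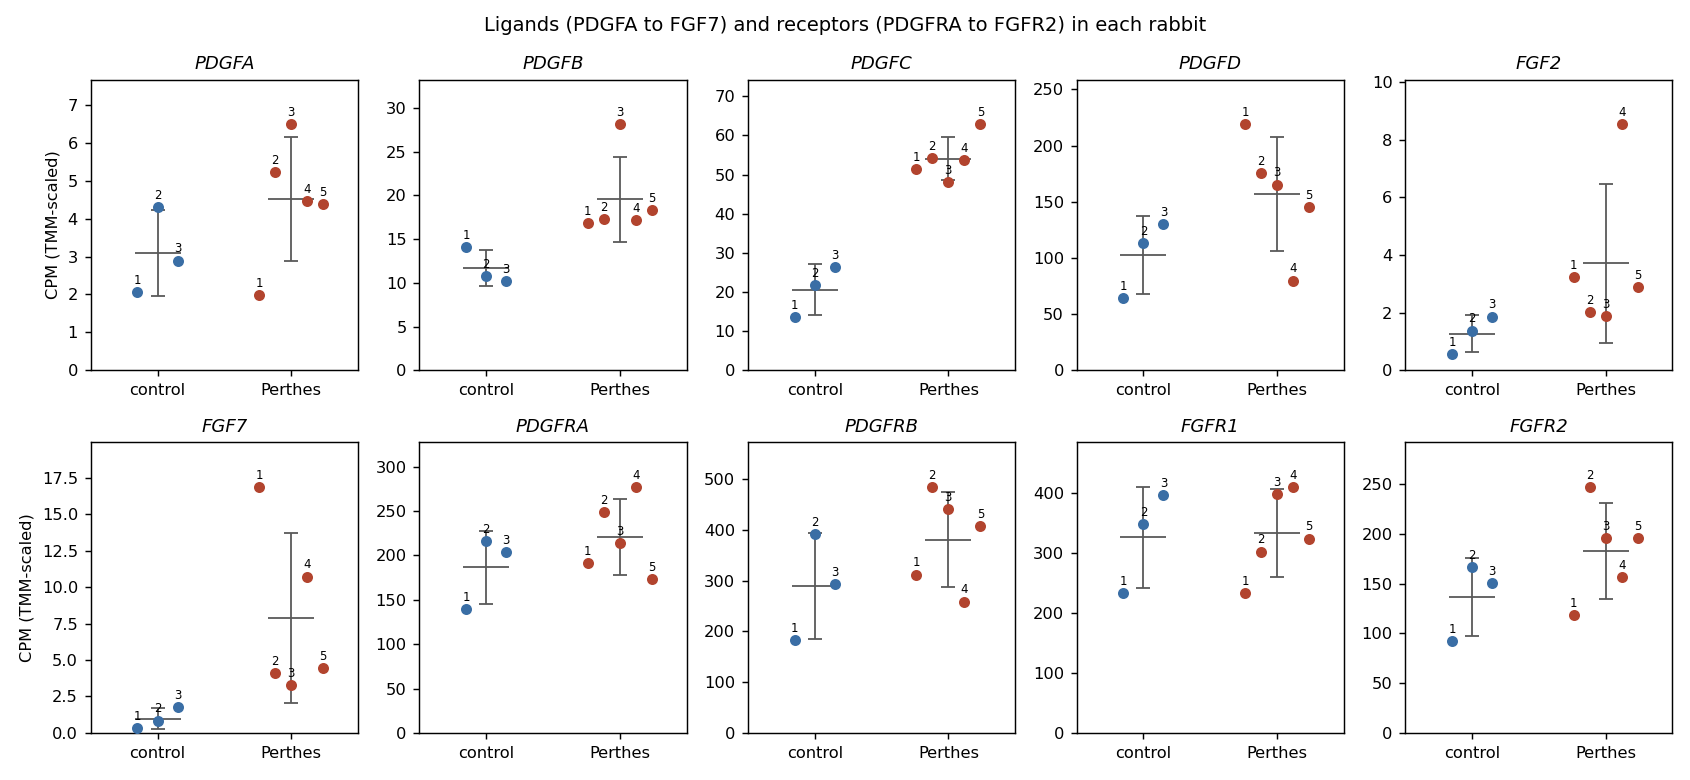
TMM-scaled CPM of each of the 10 genes in the 3 control and 5 Perthes rabbits. Points are rabbits, numbered as in the text, and the horizontal line and bars are the group mean ± SD. The groups are separate for *PDGFB*, *PDGFC*, *FGF2* and *FGF7*, with Perthes above, and overlap for the other 6 genes.

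*PDGFC*, which encodes a ligand of the α receptor, was higher in every Perthes rabbit and varied little among them. Its level was 51.4, 54.3, 48.1, 53.7 and 62.9 CPM in Perthes rabbits 1 to 5 and 13.7, 21.8 and 26.4 CPM in control rabbits 1 to 3. The lowest Perthes value was thus well above the highest control. The means were 54.1 ± 5.49 CPM (SD, n = 5) and 20.6 ± 6.42 CPM (SD, n = 3), a 2.62-fold difference. On the log2 scale edgeR fitted a change of 1.39 (SE 0.22, 95% interval 0.89 to 1.89, edgeR adjusted p = 0.0122). Without control rabbit 2 it was 1.43, with an edgeR adjusted p of 0.0519 that no longer passed 0.05. In that edgeR fit 0 of 15594 genes passed, with 3722 at an unadjusted p below 0.05. Over all alternatives the adjusted p of *PDGFC* ranged from 1.1e-06 to 0.124. Without Perthes rabbit 4 the log2 fold change was 1.39 (edgeR adjusted p = 0.0117).

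*FGF7*, a mesenchymal growth factor for epithelial cells, had the largest fold change of the 10 genes and a wide spread among the Perthes rabbits. It stood at 16.9, 4.08, 3.27, 10.7 and 4.46 CPM in Perthes rabbits 1 to 5, which were 500, 109, 89, 295 and 131 counts. In control rabbits 1 to 3 it stood at 0.322, 0.846 and 1.80 CPM, from 9, 24 and 54 counts. Perthes rabbits 1 and 4 were the high ones, and the other 3 lay close together, still above every control. The means were 7.89 ± 5.85 CPM (SD, n = 5) and 0.988 ± 0.747 CPM (SD, n = 3). The fitted change on the log2 scale was 2.99 (SE 0.75, 95% interval 1.29 to 4.68, edgeR adjusted p = 0.0306). The call was lost without Perthes rabbit 5 (edgeR adjusted p = 0.0516), control rabbit 1 (0.106) or control rabbit 2 (0.113), where the log2 fold change was 3.14, 2.57 and 2.89. Without Perthes rabbit 4 it was 2.85 (edgeR adjusted p = 0.0418), and over all alternatives the adjusted p ranged from 0.000107 to 0.230.

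*PDGFB*, whose product recruits pericytes to vessels and is stored in platelets, did not pass the edgeR threshold although the groups were separate. Its level was 16.8, 17.3, 28.2, 17.1 and 18.3 CPM in Perthes rabbits 1 to 5 and 14.1, 10.8 and 10.2 CPM in control rabbits 1 to 3. Perthes rabbit 3 was high, and the other 4 lay within a narrow range. Its log2 fold change was 0.74 (SE 0.23, 95% interval 0.23 to 1.25, edgeR adjusted p = 0.0575), and DESeq2 gave an adjusted p of 0.0208. Over all alternatives the adjusted p ranged from 0.0208 to 0.251.

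*FGF2* likewise had separate groups in TMM-scaled CPM, by a very narrow margin, and did not pass with edgeR. It measured 3.24, 2.02, 1.87, 8.55 and 2.89 CPM in Perthes rabbits 1 to 5 and 0.572, 1.38 and 1.86 CPM in control rabbits 1 to 3. Perthes rabbit 3 had 51 counts in a library of 29348018, and control rabbit 3 had 56 in 28783082. By library totals alone these rabbits change order, and the groups overlap. Only Perthes rabbit 4 was far above the controls. Its log2 fold change was 1.54 (SE 0.61, 95% interval 0.18 to 2.91, edgeR adjusted p = 0.115), and DESeq2 gave an adjusted p of 0.0399. Without Perthes rabbit 4 the log2 fold change was 0.98, so that 1 rabbit carried much of it, and the adjusted p ranged from 0.0399 to 0.425 over all alternatives.

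The remaining ligands, *PDGFA* and *PDGFD*, had overlapping groups. *PDGFA*, an α receptor ligand known for its role in mesenchymal progenitors, was at 1.993, 5.24, 6.499, 4.48 and 4.39 CPM in Perthes rabbits 1 to 5 and at 2.07, 4.30 and 2.89 CPM in control rabbits 1 to 3. Perthes rabbit 1 was below every control, and the other 4 Perthes rabbits were above every control. This gave a log2 fold change of 0.55 (95% interval −0.33 to 1.43, edgeR adjusted p = 0.366). *PDGFD*, which encodes a β receptor ligand, was at 219, 176, 165, 79.8 and 145 CPM in Perthes rabbits 1 to 5 and at 64.0, 113 and 130 CPM in control rabbits 1 to 3. Here Perthes rabbit 4 was the low one and the other 4 were above every control. The log2 fold change was 0.61 (95% interval −0.15 to 1.38, edgeR adjusted p = 0.246). Without Perthes rabbit 4 the edgeR adjusted p was 0.0821, the lowest of all alternatives, whose highest was 0.544. Perthes rabbit 4 thus had the highest *FGF2* and the lowest *PDGFD* of its group.

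None of the 4 receptors passed the test, and their groups overlapped. *PDGFRA*, the α receptor of mesenchymal progenitors and fibroblasts, was at 191, 249, 214, 277 and 173 CPM in Perthes rabbits 1 to 5 and at 140, 217 and 204 CPM in control rabbits 1 to 3. *PDGFRB*, the β receptor of pericytes and stromal cells, was at 312, 485, 440, 259 and 408 CPM in Perthes and at 183, 393 and 293 CPM in controls. For both, control rabbit 1 was the lowest of the 8 rabbits. Their log2 fold changes were 0.24 (95% interval −0.26 to 0.75, edgeR adjusted p = 0.484) and 0.40 (95% interval −0.28 to 1.07, edgeR adjusted p = 0.393).

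*FGFR1*, the main FGF receptor of mesenchymal cells, was at 233, 302, 398, 410 and 324 CPM in Perthes rabbits 1 to 5 and at 233, 349 and 396 CPM in control rabbits 1 to 3. The groups spanned nearly the same range. The log2 fold change was 0.03 (95% interval −0.53 to 0.60, edgeR adjusted p = 0.939), and its sign changed with the scaling, to −0.07 with library totals alone. *FGFR2*, a receptor with epithelial and mesenchymal splice forms that gene-level counts do not separate, was at 118, 247, 196, 157 and 196 CPM in Perthes and at 92.2, 166 and 151 CPM in controls. Perthes rabbit 1 was the low one of its group, and the log2 fold change was 0.42 (95% interval −0.21 to 1.05, edgeR adjusted p = 0.331). The intervals of all 4 receptors exclude a fold change as large as that fitted for *PDGFC* but leave room for smaller differences in either direction.

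**Figure D2:**
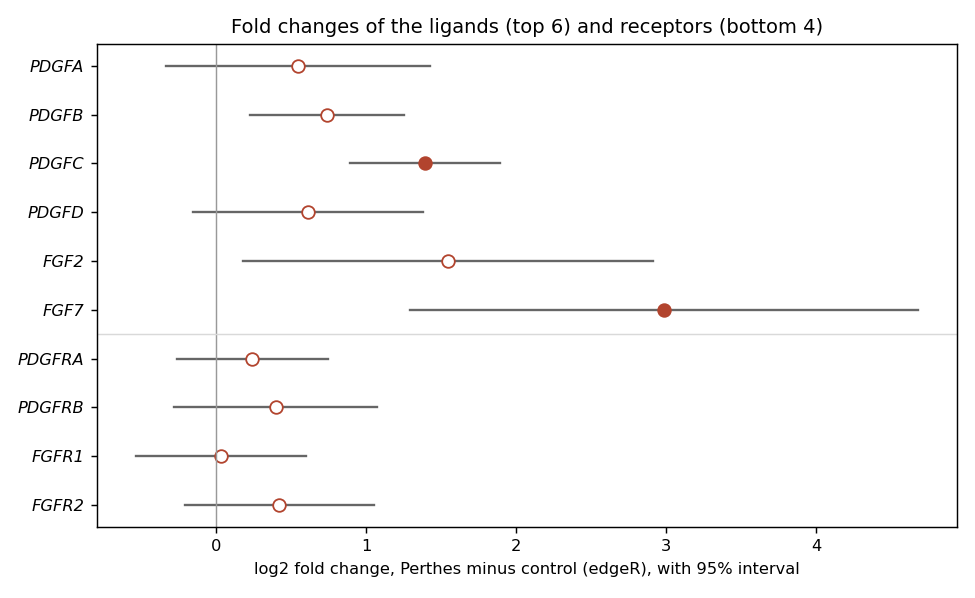
Log2 fold change of each gene, Perthes minus control, as fitted by edgeR, with its 95% interval. Filled circles passed an adjusted p of 0.05. *PDGFC* (1.39) and *FGF7* (2.99) are filled, and the intervals of *PDGFA*, *PDGFD* and the 4 receptors include 0.

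Ratios of a pair of members within a library do not depend on the scaling between libraries, and 3 were tested by an exact two-sided permutation test over all 56 divisions of the 8 rabbits, whose smallest possible p is 0.0357. The log2 ratio of *PDGFRA* to *PDGFRB* counts averaged −0.77 ± 0.52 (SD, n = 5) in Perthes and −0.59 ± 0.24 (SD, n = 3) in controls (exact p = 0.607, adjusted over the 3 ratios 0.714). Perthes rabbit 4 was the single library with more *PDGFRA* than *PDGFRB* counts, at 0.10, the other 7 lying between −1.24 and −0.39. The log2 ratio of *FGFR1* to *FGFR2* was 0.88 ± 0.41 (SD, n = 5) and 1.27 ± 0.18 (SD, n = 3), with an exact p of 0.143 (adjusted 0.429). It was lowest in Perthes rabbit 2, at 0.29, and every library had more *FGFR1* counts. The log2 ratio of *PDGFA* to *PDGFB* was −2.18 ± 0.52 (SD, n = 5) and −1.96 ± 0.73 (SD, n = 3), with an exact p of 0.714 (adjusted 0.714), and its difference changed sign without Perthes rabbit 1 or control rabbit 2. None of the 3 exact p-values was below 0.05, which does not show that the ratios were equal. An adjusted p below 0.05 was out of reach unless all 3 ratios had the smallest possible p.

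Ligand counts were also set against the summed counts of both member receptors of the family in the same library. The sums do not separate the receptor that a ligand binds. This scale is a description without a test and was chosen after the values were seen. Per 100 counts of *PDGFRA* plus *PDGFRB* there were 10.2, 7.40, 7.36, 10.01 and 10.8 counts of *PDGFC* in Perthes rabbits 1 to 5 and 4.25, 3.57 and 5.31 in control rabbits 1 to 3. Per 100 counts of *FGFR1* plus *FGFR2* there were 4.82, 0.743, 0.550, 1.89 and 0.859 counts of *FGF7* in Perthes and 0.0989, 0.164 and 0.329 in controls. For these genes all 5 Perthes rabbits were above every control, as they were in CPM. For *PDGFB*, by contrast, the groups overlapped on this scale, at 2.35 to 4.31 in Perthes and 1.77 to 4.38 in controls. The highest *PDGFB* value was that of control rabbit 1, the animal with the lowest receptor levels. *PDGFD* ranged from 14.9 to 43.5 and from 18.6 to 26.3, and *PDGFA* from 0.396 to 0.994 and from 0.583 to 0.706. *FGF2* ranged from 0.315 to 1.51 in Perthes and from 0.176 to 0.341 in controls, with 4 of 5 Perthes rabbits above every control.

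**Figure D3:**
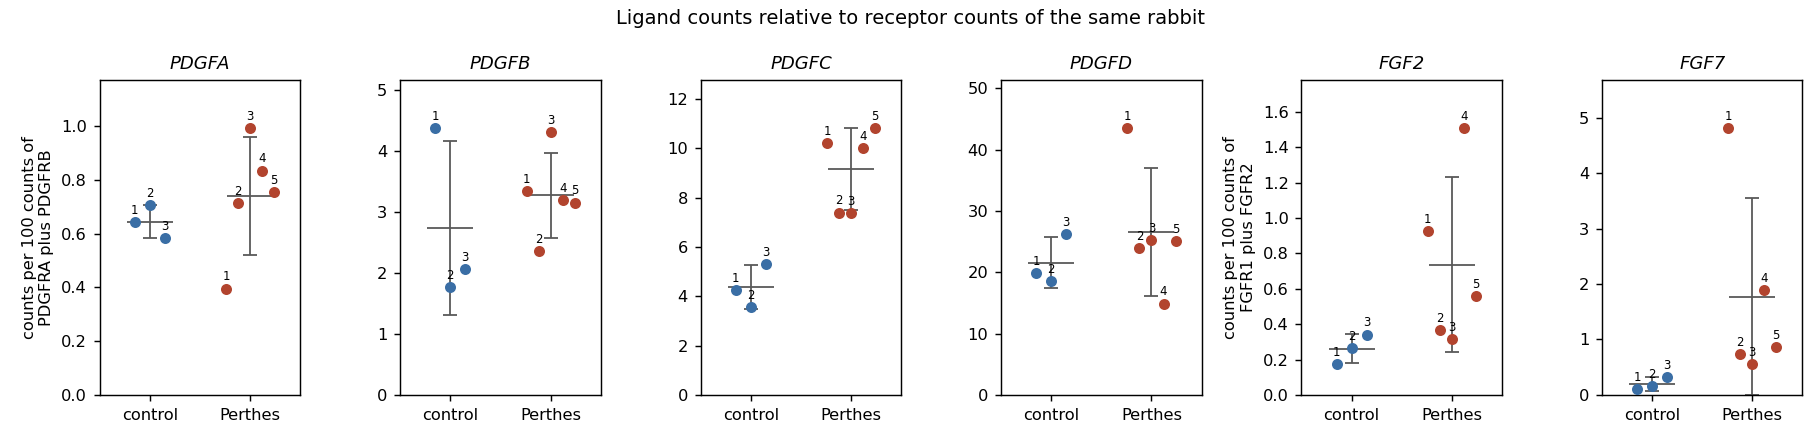
Counts of each ligand per 100 counts of *PDGFRA* plus *PDGFRB* (PDGF ligands) or of *FGFR1* plus *FGFR2* (FGF ligands) in the same library. Values are by rabbit, with the group mean ± SD. All 5 Perthes rabbits are above the controls for *PDGFC* (7.36 to 10.8 against 3.57 to 5.31) and *FGF7*, whereas the groups overlap for the other 4 ligands. The lower bar of *FGF7* in Perthes ends at the axis.

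The receptors' patterns over the 8 libraries were compared with other tested genes. The measure was the root mean square difference of log2 CPM, after centring each gene on its mean. Only genes with a symbol other than an identifier were ranked, and the medians below are over those genes. Nearest to *PDGFRA* were *MARCHF9* (0.09), *SPRY1* (0.10) and *DENND2B* (0.11), where the median gene was at 0.48. *SPRY1* encodes an inhibitor of receptor tyrosine kinase signalling. Nearest to *PDGFRB* were *RHOBTB1* (0.09), *PJVK* (0.12) and *CST3* (0.14), the median gene being at 0.57. Nearest to *FGFR1* were *CD34* (0.12), a surface protein of several cell lineages, *SPARC* (0.13), a bone matrix protein, and *MTSS2* (0.13). The median gene was at 0.50. The log2 fold changes of these nearest genes were small, from 0.08 to 0.47. That follows from choosing genes that resemble receptors with small fold changes.

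Stromal and vascular cells are usual sources of these ligands and receptors, so their marker genes are given beside the results. Among all genes tested, 6.21% were called higher and 8.86% lower, and in 11.2% every Perthes rabbit was above every control. Of 14 fibroblast and mesenchyme markers, 3 rose (*COL3A1*, *POSTN* and *THY1*), 0 fell, and the summed CPM ranged from 131901 to 267275 in Perthes and from 125428 to 173375 in controls. The list median was a log2 fold change of 0.96, with 14 of 14 above 0, and in 7 every Perthes rabbit was above every control. The summed level follows *COL1A1*, the type I collagen chain with the most counts (log2 fold change 0.15, edgeR adjusted p = 0.842). Of 10 pericyte and smooth muscle markers, 4 rose (*TAGLN*, *ACTA2*, *ABCC9* and *KCNJ8*) and 0 fell, and the summed CPM did not overlap, at 763 to 1226 in Perthes and 369 to 519 in controls. The median of this list was 0.78, with 10 of 10 above 0, and in 4 every Perthes rabbit was above every control. The most abundant gene of the list was *CSPG4* (0.73, edgeR adjusted p = 0.218). Of 10 endothelial markers, 0 rose and 1 fell, with summed CPM of 338 to 490 and 371 to 461, led by *PECAM1* (−0.30, edgeR adjusted p = 0.421). Here the list median was −0.30, with 4 of 10 above 0. These names of called markers were chosen after their values were seen.

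Blood cells can also carry the ligands, platelets being rich in PDGF and macrophages a source of *PDGFB*. Of 6 platelet and megakaryocyte markers, 2 fell and 0 rose, and the summed CPM was 6.79 to 129 in Perthes and 230 to 585 in controls, with *ITGA2B*, the platelet integrin chain, the most abundant (−2.71, edgeR adjusted p = 0.0274). Of 8 macrophage markers, 3 rose and 2 fell, with summed CPM of 665 to 1632 and 857 to 1669, the most abundant being *LYZ* (−1.50, edgeR adjusted p = 0.0357). The list median was a log2 fold change of 0.69, with 6 of 8 above 0. The 3 that rose, named after their values were seen, were *CD68* (2.02, edgeR adjusted p = 0.0165), *MRC1* (1.96, edgeR adjusted p = 0.0454) and *CSF1R* (1.07, edgeR adjusted p = 0.0326), and the other that fell was *C1QC* (−2.09, edgeR adjusted p = 0.0133). Among erythroid markers 2 of 8 fell, led by *SLC4A1* (−3.07, edgeR adjusted p = 0.114), among neutrophil markers 3 of 7, led by *LCN2* (−3.87, edgeR adjusted p = 0.0385), and among B cell markers 1 of 4, led by *CD79B* (−1.65, edgeR adjusted p = 0.0994). None of the erythroid, neutrophil or B cell markers rose. The median log2 fold changes were −3.24 for platelet, −3.02 for erythroid, −3.76 for neutrophil and −1.62 for B cell markers. In each of these 4 lists 0 genes had a fold change above 0, including those not called. For reference, the shares over all genes tested were 8.86% called lower and 6.21% called higher.

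Of the skeletal tissue markers none was called in either direction, at 10 osteoblast and osteocyte, 9 chondrocyte, 7 marrow stroma and fat and 2 skeletal muscle genes. In that order, the median log2 fold changes were −0.04 (5 of 10 above 0), 1.01 (8 of 9), −0.24 (3 of 7) and −1.48 (0 of 2). The most abundant genes of these lists were *SPP1* (0.90, edgeR adjusted p = 0.171), *COL2A1* (0.34, edgeR adjusted p = 0.671), *LPL* (0.36, edgeR adjusted p = 0.773) and *ACTA1* (−2.25, edgeR adjusted p = 0.146). The summed CPM of the bone markers was 3310 to 4951 in Perthes and 1623 to 3725 in controls, that of the cartilage markers 40021 to 154824 and 47734 to 69643, that of marrow stroma and fat 237 to 1928 and 934 to 2020, and that of muscle 0.551 to 2.25 and 0.494 to 10.4. No marker on any list was at 0 in every library. The part of these cell types in the levels of the 10 genes was not tested.

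The rest of the pathway was followed through 134 genes on 7 lists, of which 117 were in the table and 112 could be tested. In edgeR 16 rose and 4 fell, or 14.3% and 3.57%, beside 6.21% and 8.86% of all genes, and the median log2 fold change was 0.31. DESeq2 called 25 higher and 7 lower, where 9.74% and 11.0% of all the genes it tested were called higher and lower. The counts changed when single rabbits were left out, as did those over all genes, which were 951 higher and 1356 lower with every rabbit. Leaving out Perthes rabbit 4 gave 18 higher and 4 lower pathway genes (1267 and 1423 over all genes), while the following fits gave fewer. Without Perthes rabbit 3 there were 7 higher and 2 lower pathway genes (385 and 646 over all genes), and without Perthes rabbit 5 there were 8 and 1 (351 and 550). Without control rabbit 1 there were 3 and 0 (73 and 184), and without control rabbit 2 there were 0 and 0 (0 and 0). In the last fit 24 pathway genes were higher and 10 lower at an unadjusted p below 0.05 in edgeR, beside 1624 and 2098 of 15594 genes, or 10.4% and 13.5%.

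**Figure D4:**
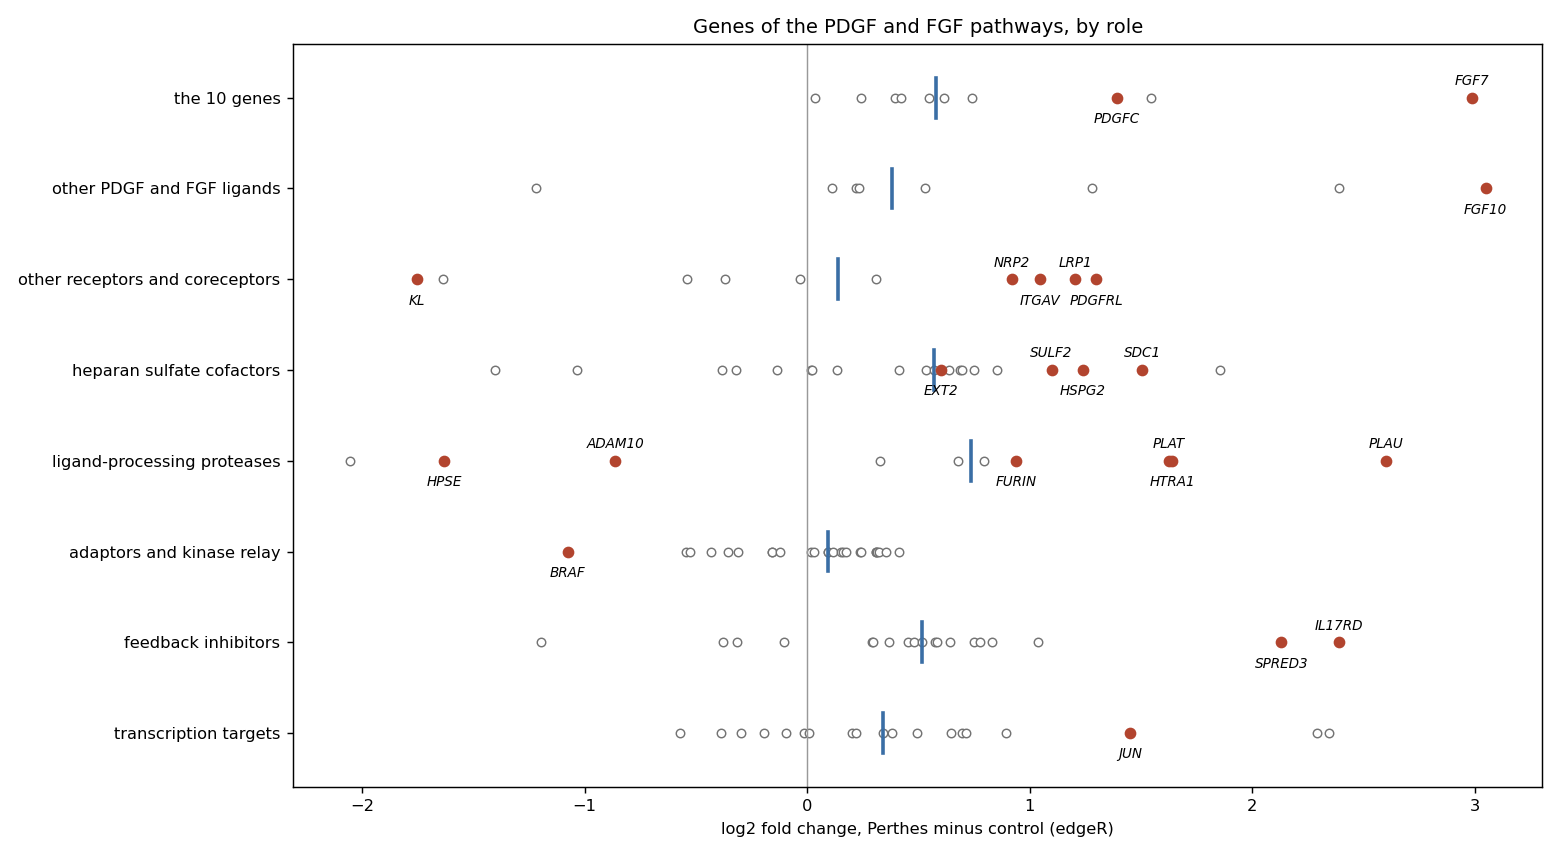
Log2 fold change (Perthes minus control, edgeR) of the 10 genes and of the tested genes on the 7 pathway lists, 1 circle per gene. Filled and named genes passed an adjusted p of 0.05, and blue bars are list medians. Called genes lie mostly to the right among receptors, heparan sulfate cofactors and proteases, and the adaptors and kinases lie close to 0, with a median of 0.10.

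Among the other FGF family genes, not all of which encode secreted ligands, 12 of 20 were in the table and 8 were tested. The tested genes included *FGF11*, *FGF12* and *FGF13*. Of the 8, 1 rose and 0 fell, with a median log2 fold change of 0.38. The one was *FGF10*, the closest relative of *FGF7*, a mesenchymal ligand for the same receptor form. It measured 7.77, 1.498, 3.05, 4.15 and 6.30 CPM in Perthes rabbits 1 to 5 and 0.286, 0.247 and 1.098 CPM in control rabbits 1 to 3. All Perthes rabbits were above the controls, of which rabbits 1 and 2 had 8 and 7 counts. The log2 fold change was 3.05 (SE 0.70, 95% interval 1.46 to 4.64, edgeR adjusted p = 0.0232). The call was lost without Perthes rabbit 5 (edgeR adjusted p = 0.0537), control rabbit 1 (0.0959) or control rabbit 2 (0.0909), and the range over all alternatives was 3.68e-05 to 0.151. *FGF23*, the phosphate hormone of osteocytes, was singled out after its values were seen. It stood at 51.7 CPM in Perthes rabbit 4 and at 0.991 to 3.60 CPM in the other 7 rabbits (log2 fold change 2.39, edgeR adjusted p = 0.285).

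Of 10 other receptors and coreceptors tested, 4 rose and 1 fell, and the median log2 fold change was 0.14. *PDGFRL*, which encodes a PDGF receptor-like protein without a kinase domain, was at 140, 145, 125, 68.1 and 97.7 CPM in Perthes rabbits 1 to 5 and at 31.7, 50.7 and 58.0 CPM in control rabbits 1 to 3 (log2 fold change 1.299, SE 0.30, edgeR adjusted p = 0.0238). *LRP1*, an endocytic receptor that associates with the β receptor, averaged 3571 ± 432 CPM (SD, n = 5) in Perthes and 1549 ± 317 CPM (SD, n = 3) in controls (log2 fold change 1.20, edgeR adjusted p = 0.0165). *ITGAV*, an integrin chain, rose by 1.05 (edgeR adjusted p = 0.0313), and *NRP2*, a neuropilin coreceptor named here after its values were seen, by 0.92 (edgeR adjusted p = 0.0353). The one that fell was *KL*, the coreceptor for the product of *FGF23*, from 1.35 ± 0.291 CPM (SD, n = 3) in controls to 0.398 ± 0.166 CPM (SD, n = 5) in Perthes, or −1.75 on the log2 scale (edgeR adjusted p = 0.0243). *KL* had few counts, 5, 14, 14, 14 and 8 in Perthes rabbits 1 to 5 and 47, 35 and 34 in control rabbits 1 to 3. A filter of at least 10 counts in every library removed it. In all 5 genes the groups were separate. All 5 calls were lost without control rabbit 1 (edgeR adjusted p from 0.0564 to 0.0997) and without control rabbit 2 (0.0656 to 0.0969). Without Perthes rabbit 3 those of *PDGFRL*, *ITGAV* and *NRP2* were lost (0.0562 to 0.0797), without Perthes rabbit 5 those of *ITGAV*, *NRP2* and *KL* (0.0643 to 0.0817), and without Perthes rabbit 1 that of *NRP2* (0.0554). The highest adjusted p over all alternatives was 0.117 for *PDGFRL*, 0.135 for *LRP1*, 0.201 for *ITGAV*, 0.174 for *NRP2* and 0.201 for *KL*.

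Heparan sulfate chains hold FGFs in the matrix and form part of the signalling complex with their receptors. Of 21 genes tested for this role, 4 rose and 0 fell, with a median log2 fold change of 0.57. *SDC1*, a cell surface proteoglycan, was at 62.9, 87.1, 82.8, 70.9 and 94.9 CPM in Perthes rabbits 1 to 5 and at 21.3, 25.6 and 37.2 CPM in control rabbits 1 to 3. The groups were far apart, with a log2 fold change of 1.51 (SE 0.23, 95% interval 0.99 to 2.03, edgeR adjusted p = 0.0118). *HSPG2*, the basement membrane proteoglycan perlecan, rose by 1.24 (SE 0.32, edgeR adjusted p = 0.0345), and *SULF2*, which removes sulfate groups from the chains outside the cell, by 1.098 (SE 0.29, edgeR adjusted p = 0.0360). *EXT2*, a subunit of the chain-building enzyme that is named after its values were seen, rose by 0.60 (SE 0.17, edgeR adjusted p = 0.0447). Without control rabbit 2 all 4 calls were lost (edgeR adjusted p from 0.0519 for *SDC1* to 0.141 for *EXT2*). Those of *HSPG2*, *SULF2* and *EXT2* were also lost without control rabbit 1 (0.118 to 0.134), control rabbit 3 (0.0535 to 0.0867), Perthes rabbit 3 (0.0695 to 0.1001) or Perthes rabbit 5 (0.0637 to 0.108). That of *SULF2* was lost without Perthes rabbit 1 (0.0594), and that of *EXT2* without Perthes rabbit 2 (0.0656) or Perthes rabbit 4 (0.0563). The highest adjusted p over all alternatives was 0.112 for *SDC1*, 0.153 for *HSPG2*, 0.179 for *SULF2* and 0.250 for *EXT2*.

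Among 10 ligand-processing proteases and related enzymes, 4 rose and 2 fell, with a median log2 fold change of 0.74. *PLAT* encodes tissue plasminogen activator, which cuts latent PDGF-C, and *PLAU* encodes urokinase, which cuts latent PDGF-D. *PLAT* stood at 27.3, 27.6, 24.9, 35.8 and 38.0 CPM in Perthes rabbits 1 to 5 and at 6.22, 10.6 and 13.04 CPM in control rabbits 1 to 3 (log2 fold change 1.63, SE 0.27, edgeR adjusted p = 0.0128). *PLAU* stood at 204, 101, 167, 63.2 and 168 CPM in Perthes and at 24.2, 18.8 and 26.6 CPM in controls (log2 fold change 2.60, SE 0.39, edgeR adjusted p = 0.0118). In both, all Perthes rabbits were well above the controls, with Perthes rabbit 4 the lowest for *PLAU* as it was for *PDGFD*. Each of the 2 calls was lost in a single leave-one-out fit, that without control rabbit 2 (edgeR adjusted p = 0.0519), and reached at most 0.125 for *PLAT* and 0.0784 for *PLAU* over all alternatives.

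*HTRA1*, a secreted serine protease, rose by 1.64 (SE 0.46, edgeR adjusted p = 0.0422), with *FURIN*, a convertase that trims PDGF-A and PDGF-B precursors, at 0.94 (SE 0.21, edgeR adjusted p = 0.0208). *FURIN* was named after its values were seen. The 2 that fell were *HPSE*, the heparanase that cuts heparan sulfate (log2 fold change −1.63, SE 0.46, edgeR adjusted p = 0.0453), and *ADAM10*, a membrane sheddase (−0.86, SE 0.20, edgeR adjusted p = 0.0228). The groups overlapped for *HPSE*, at 1.82 to 5.99 CPM in Perthes and 5.42 to 18.0 CPM in controls, and without control rabbit 1, its highest animal, the log2 fold change was −0.92 (edgeR adjusted p = 0.217). The other fits that lost *HPSE* were those without control rabbit 2 or Perthes rabbits 1, 3, 4 or 5 (0.0642 to 0.102). *HTRA1* was lost without Perthes rabbit 1, 3 or 5 or control rabbit 1 or 2 (0.0501 to 0.143). *FURIN* and *ADAM10* were lost without Perthes rabbit 3 or 5 or any 1 of the 3 controls (0.0514 to 0.0940). The highest adjusted p over all alternatives was 0.309 for *HPSE*, 0.197 for *HTRA1*, 0.178 for *FURIN* and 0.225 for *ADAM10*.

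Of 25 adaptors and kinases that relay the receptor signal, 0 rose and 1 fell, and the median log2 fold change was 0.10. *BRAF*, a kinase that activates the MAP kinase cascade, was at 52.4, 69.0, 53.9, 62.8 and 50.2 CPM in Perthes rabbits 1 to 5 and at 150, 117 and 98.5 CPM in control rabbits 1 to 3 (log2 fold change −1.08, SE 0.18, edgeR adjusted p = 0.0132). All Perthes rabbits were below the controls. The call was lost without control rabbit 1 (edgeR adjusted p = 0.0504) or control rabbit 2 (0.0519), and the range over all alternatives was 1.79e-05 to 0.143.

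Of 19 feedback inhibitors, 2 rose and 0 fell, with a median log2 fold change of 0.52. *IL17RD*, which encodes a membrane inhibitor of FGF signalling, was at 33.8, 18.1, 25.8, 8.51 and 19.8 CPM in Perthes rabbits 1 to 5 and at 2.82, 4.97 and 4.32 CPM in control rabbits 1 to 3 (log2 fold change 2.39, SE 0.44, edgeR adjusted p = 0.0136). *SPRED3*, an inhibitor of the Ras to Raf step, was at 2.43, 1.80, 2.20, 4.91 and 3.37 CPM and at 0.536, 0.670 and 0.798 CPM (log2 fold change 2.13, SE 0.41, edgeR adjusted p = 0.0145). Both had separate groups, and Perthes rabbit 4 was the lowest of its group for *IL17RD* and the highest for *SPRED3*. Both calls were lost without control rabbit 1 (edgeR adjusted p = 0.0598 and 0.0642) or control rabbit 2 (0.0531 and 0.0622), and reached at most 0.109 and 0.135 over all alternatives. The better known feedback genes *DUSP6* (0.58, edgeR adjusted p = 0.152), *SPRY2* (0.48, edgeR adjusted p = 0.327) and *SPRY4* (0.75, edgeR adjusted p = 0.172), named after their values were seen, did not pass.

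**Figure D5:**
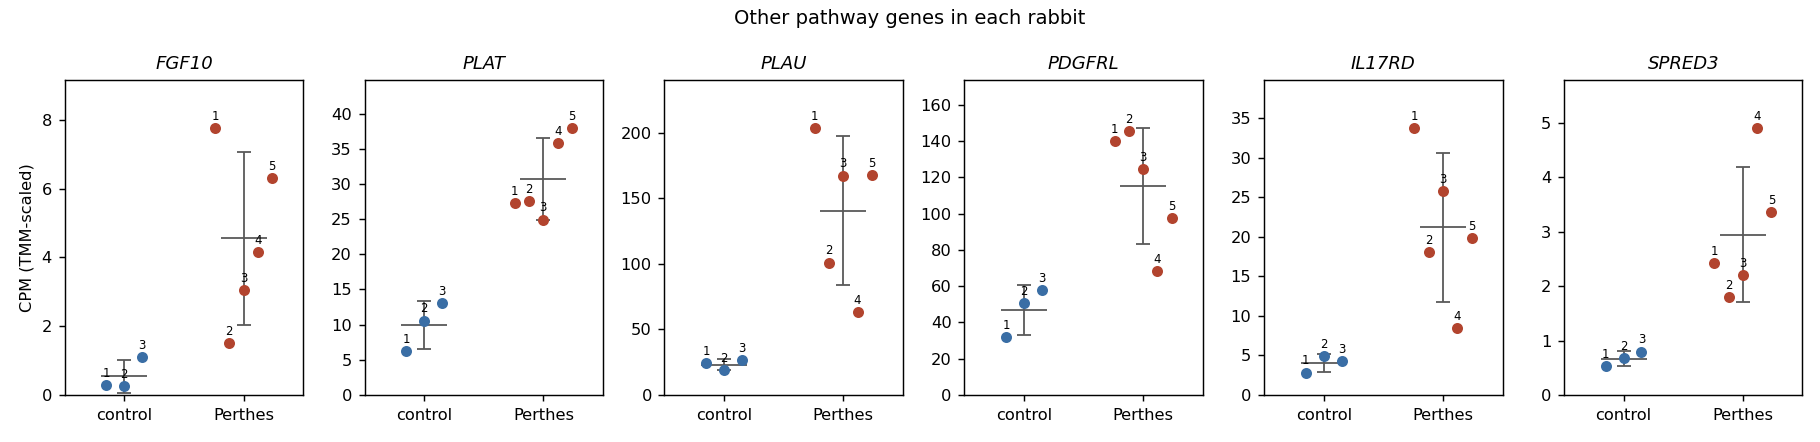
TMM-scaled CPM of 6 other pathway genes in the 3 control and 5 Perthes rabbits, with the group mean ± SD. The groups are separate in every panel, with Perthes above. Perthes rabbit 4 is lowest of its group for *PLAU*, *PDGFRL* and *IL17RD* and highest for *SPRED3*.

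Of 19 transcription targets, 1 rose and 0 fell, with a median log2 fold change of 0.34. *JUN*, an immediate early transcription factor, was at 35.7, 26.8, 34.8, 18.3 and 35.4 CPM in Perthes rabbits 1 to 5 and at 7.47, 9.70 and 16.0 CPM in control rabbits 1 to 3 (log2 fold change 1.45, SE 0.32, edgeR adjusted p = 0.0201). The lowest Perthes rabbit, number 4, was close to the highest control. The call was lost without Perthes rabbit 3 (edgeR adjusted p = 0.0501), control rabbit 1 (0.0781) or control rabbit 2 (0.0848), and the range over all alternatives was 0.000219 to 0.118.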

How the data were processed

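Total RNA of 8 femoral heads was depleted of ribosomal RNA and sequenced from directional libraries. The authors filtered reads with SOAPnuke, mapped them with HISAT2 2.0.4 and counted them per gene with RSEM 1.1.17 and HTSeq 1.99.2, the versions being as in the submitters' processing notes. The values deposited are expected counts for each gene without normalization, in which reads are shared among possible genes. Another 8 per-sample columns repeat the 8 used and were left out. The small RNA table of the series was not used here. The third control has the number 3 in its code and 2 in its title, and is called control rabbit 3 here.

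Counts were rounded, scaled by TMM, filtered with filterByExpr by group and tested with edgeR 4.0.16 in R 4.3.3 (quasi-likelihood F-test, no covariate). The standard error is the log2 fold change divided by the square root of F, and 95% intervals use the fitted degrees of freedom. A gene was called at an adjusted p below 0.05. The common biological coefficient of variation was 0.361, and genes with few counts, such as *FGF7* and *FGF10* in the controls, also carry counting error. The labels do not say whether replicates are separate litters, and p-values measure only the spread between these samples. For ratios, 0.5 was added to each count, and p-values came from scipy 1.17.1. The methods were tested on simulated counts.

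The 10 genes, the 7 pathway lists and the 12 marker lists were chosen with earlier results of these data known. Of each pathway list, up to 3 called genes per direction with the largest fold change were named. Of each marker list it was the most abundant gene, and for *PDGFRA*, *PDGFRB* and *FGFR1* the 3 genes nearest in pattern. In 4 cases a list gene was matched by its RefSeq gene ID, from a table of another assembly (mOryCun1.1) used for names alone. Alternatives were DESeq2 1.42.0, other scalings, filters and thresholds, a replicate block and each rabbit left out.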

Additional observations from a re-analysis of the deposited data

Results flagged for a closer look

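Within the 5 Perthes rabbits, the highest or the lowest value was compared with the range of the group for 30 genes, the 10 described and the 20 called pathway genes, by Dixon's ratio of gap to range with a critical value of 0.71. Chance flags about 1 in 20 groups, and 3 of the values were past it. *PDGFB* stood at 28.2 CPM in Perthes rabbit 3, against 16.8 to 18.3 CPM in the other 4 (ratio 0.868). *FGF2* stood at 8.55 CPM in Perthes rabbit 4, against 1.87 to 3.24 CPM (ratio 0.795). *EXT2* stood at 103.8 CPM in Perthes rabbit 1, against 138 to 152 CPM (ratio 0.718).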

How the results depend on the processing

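The 2 calls among the 10 genes became 4 with DESeq2, 1 with at least 10 counts in every library (a filter that removed *FGF7*), 0 at thresholds of 2 for the log2 fold change and 1e-05 for the adjusted p, and 0 to 2 when each rabbit was left out. Of the 14 alternatives each, *PDGFC* was called in 12, and of 13, *FGF7* in 9. The 16 higher and 4 lower pathway genes became 25 and 7 with DESeq2 (9.74% and 11.0% over all the genes it tested), 0 and 0 at the strict thresholds, and 0 to 18 and 0 to 4 with a rabbit left out. Without control rabbit 2 no gene passed in edgeR (3722 of 15594 at an unadjusted p below 0.05, smallest adjusted p 0.0519). Replicate numbers did not pair the rabbits: deviations of same-numbered rabbits correlated at −0.317, 0.161 and −0.238. With the number as a replicate block, 0 of the 10 genes and 0 and 0 pathway genes were called in edgeR, as were 0 of all 15305 genes (smallest adjusted p 0.0573). At an unadjusted p below 0.05 there were 3 of the 10, 23 higher and 7 lower pathway genes, and 3152 of all genes (20.6%). The log2 fold change of *FGFR1*, not called, turned to −0.0731 with library totals alone and −0.0663 with the block, and ran from −0.16 to 0.20 with a rabbit left out, reaching −0.04 without Perthes rabbit 3, −0.05 without Perthes rabbit 4 and −0.16 without control rabbit 1. The log2 difference of the *PDGFA* to *PDGFB* ratio ran from −0.61 to 0.11, with 0.01 without Perthes rabbit 1 and 0.11 without control rabbit 2. Over all genes, library totals alone gave 678 higher and 1705 lower calls in place of 951 and 1356. The cause of these changes was not tested.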
